A study of Mus musculus with 45 samples.

Results

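The metallothioneins Mt1 and Mt2 and 3 genes of the zinc response, Mtf1, Slc30a1 and Slc39a10, were followed across 30 RNA libraries from mouse tumour cell lines. These 5 genes were taken by symbol from the 55335 genes of each of 2 tables of FPKM, which are fragment counts divided by transcript length and by the library's mapped fragments. All 5 were present in both tables and all passed the filter on low values in every comparison. The members were chosen by their place in the zinc response with earlier results of these data in view. The lower FPKM of Mt2 in Hepa1-6 cells with the drug was known at that point, and which further values entered the choice is not recorded. That contrast is therefore given for the 5 genes as a description with no test.

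CT26 is a colon carcinoma line and Hepa1-6 a line from liver. For the drug experiment, unmodified cells of each line (genotype WT) received DMSO, the solvent control, or a compound known here only by its label, stk, for 48 hours. In the knockdown experiment no compound was given, and lines carrying a short hairpin were collected 24 hours after seeding. CT26 carried shLucif, a hairpin against luciferase, or 1 of 3 hairpins against Soat1 (sh1, sh2, sh3), and Hepa1-6 carried shLucif or a scrambled hairpin (scramble). Soat1 encodes sterol O-acyltransferase 1, which esterifies cholesterol, and the title of the study names it as an immune checkpoint of cancer stem cells. Every group held 3 libraries. Nothing in the labels says that they came from separate cultures, so p-values measure only the spread between these libraries, which may be technical.

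Zinc that enters a cell is bound, stored or pumped out. Metallothioneins are small, cysteine-rich proteins that bind zinc, copper and other metals. MTF1 is the zinc-sensing transcription factor that binds metal response elements in the promoters of the metallothionein genes and of Slc30a1. SLC30A1 (ZnT1) exports zinc across the plasma membrane, and SLC39A10 (ZIP10) imports it. Metallothionein genes also respond to glucocorticoids and to oxidative stress, and in liver they are strongly inducible.

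The 2 metallothionein genes lie next to each other on mouse chromosome 8 of GRCm38, on the plus strand. Mt2 (ENSMUSG00000031762) spans 94172664 to 94173568 and Mt1 (ENSMUSG00000031765) spans 94179082 to 94180327, with 5513 bases between them in the GENCODE annotation. Mtf1 (ENSMUSG00000028890) spans 124802104 to 124849800 on chromosome 4. Slc30a1 (ENSMUSG00000037434) spans 191906767 to 191913247 on chromosome 1, and Slc39a10 (ENSMUSG00000025986) spans 46807544 to 46892852 on the same chromosome.

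The coding sequences of Mt1 and Mt2 are shown because their likeness bears on how reads could be told apart. They come from the GENCODE transcripts Mt1-201 and Mt2-201, and capitals mark the bases that differ.
Mt1: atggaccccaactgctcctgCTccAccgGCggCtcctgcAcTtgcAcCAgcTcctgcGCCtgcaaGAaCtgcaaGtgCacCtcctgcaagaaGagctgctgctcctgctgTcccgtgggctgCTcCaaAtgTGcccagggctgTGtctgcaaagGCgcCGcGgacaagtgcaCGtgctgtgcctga
Mt2: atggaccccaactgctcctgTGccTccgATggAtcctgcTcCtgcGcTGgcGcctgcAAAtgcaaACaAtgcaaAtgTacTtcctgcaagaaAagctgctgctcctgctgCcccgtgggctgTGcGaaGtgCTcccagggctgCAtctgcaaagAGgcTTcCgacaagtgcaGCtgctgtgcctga
Both run over 186 bases, of which 148 are identical (79.6%) and 38 differ. The longest identical run is 20 bases. Each holds 20 cysteine codons before the stop, and all 20 stand at the same codon positions. How reads that match both genes were assigned is not given in the sources used here.

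The 250 bases before the annotated start of each metallothionein gene are shown because Mt1 and Mt2 moved in the same direction with hairpin sh3. They are RefSeq sequences of GRCm38.p6 on the plus strand, at chr8:94178839-94179088 for Mt1 and chr8:94172368-94172617 for Mt2. Capitals mark matches to TGCGCNC or TGCACNC, the core of the metal response element, on either strand.
Mt1: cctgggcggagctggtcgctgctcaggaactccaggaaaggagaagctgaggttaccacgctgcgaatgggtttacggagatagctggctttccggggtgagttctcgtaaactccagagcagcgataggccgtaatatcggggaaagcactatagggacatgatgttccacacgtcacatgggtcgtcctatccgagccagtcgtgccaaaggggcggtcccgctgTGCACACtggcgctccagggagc
Mt2: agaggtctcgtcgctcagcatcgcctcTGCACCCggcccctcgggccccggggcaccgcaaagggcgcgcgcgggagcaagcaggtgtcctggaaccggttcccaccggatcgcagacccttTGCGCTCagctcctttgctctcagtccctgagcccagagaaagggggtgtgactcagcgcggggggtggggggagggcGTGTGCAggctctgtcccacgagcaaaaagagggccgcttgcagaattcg
The Mt1 window holds 1 match, 23 to 17 bases before the start. The Mt2 window holds 3, of which the nearest lies 50 to 44 bases before the start on the minus strand and the others begin 128 and 223 bases before it. Slc30a1 has 1 match, 43 to 37 bases before its start, and no match was found in the windows of Mtf1 and Slc39a10. The Slc39a10 windows precede RefSeq starts at 46925776 and 46853618 on the minus strand. The former lies outside the GENCODE span of the gene and the latter inside it. The bases before the GENCODE start of Slc39a10 were therefore not searched. Of 32841 windows of this length, 21.4% hold at least 1 match, 5.18% at least 2 and 1.26% at least 3. A match describes letters only. Annotated starts differ between sources: in GENCODE the Mt1 transcripts start 7 bases before and 122 or 152 bases after the RefSeq start, and the Mt2 transcripts 46 or 242 bases after it. No bases after the RefSeq starts were searched, so matches just before the later starts would be missed. The counts of matches therefore do not rank the promoters of the 2 genes.

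Read totals are unknown. The number of genes at 1 FPKM or more ran from 11159 to 11555 over all libraries. Soat1 in CT26 stood at 19.9 ± 0.254 FPKM with shLucif (SD, n = 3) and between 2.59 and 3.47 with the 3 hairpins. Of 11 intestinal epithelium markers, CT26 with DMSO held 1 at 1 FPKM or more (Krt20, 26.5 FPKM), with Cdx2 at 0.505, Cdh17 at 0.571, and Cdx1, Epcam and Cdh1 listed at 0. Hepa1-6 with DMSO held 5 of these 11 at 1 FPKM or more, among them Cdh17 at 112 FPKM and Vil1 at 56.4. The summed intestinal markers were 242 to 251 FPKM in Hepa1-6 and 26.3 to 30.2 in CT26, so this list did not single out CT26. Of 16 hepatocyte markers, 10 reached 1 FPKM in Hepa1-6 with DMSO, with Alb at 159 FPKM and Hnf4a at 40.5. Those that did not included Ttr (0.0145), Apoa1 (0.0693) and Serpina1a (listed at 0). CT26 with DMSO held 1 of the 16 (Afp, 4.95 FPKM). The Hepa1-6 shLucif libraries stood apart from the other Hepa1-6 groups. Their summed hepatocyte markers were 118 to 122 FPKM, against 775 to 825 with scramble and 5.77 to 6.99 in CT26 shLucif. Soat1 was 12.7 to 13.6 FPKM there and 0.146 with scramble, and Col1a2, which CT26 shLucif held at 90.8 FPKM, was 15.4 there and 0.0353 with scramble. Between CT26 shLucif and Hepa1-6 scramble, 925 genes were at least 8-fold apart with at least 5 FPKM in the higher group. Of these, 851 (92%) lay between those 2 groups in the Hepa1-6 shLucif libraries. The genes were picked from those same 2 groups, so values of any other group tend to fall between them. No share from another Hepa1-6 group was taken for comparison. Results that rest on the Hepa1-6 shLucif libraries are given beside the value from scramble, or with DMSO, where one exists.

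Both metallothionein mRNAs were abundant, and both were higher in CT26 than in Hepa1-6. Among 55335 genes ranked by mean FPKM, Mt2 ranked 99 in CT26 with DMSO and Mt1 ranked 210. In Hepa1-6 with DMSO these ranks were 671 and 659. The summed FPKM of both made up 0.165% to 0.181% of the library total in CT26 with DMSO and 0.0393% to 0.0501% in Hepa1-6.

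Mt1 was 188, 212 and 187 FPKM in the 3 CT26 libraries with DMSO and 63.7, 81.1 and 71.3 FPKM in the 3 Hepa1-6 libraries with DMSO. Mt2 was 377, 393 and 362 FPKM in CT26 and 64.6, 81.3 and 67.5 in Hepa1-6. No Hepa1-6 library came near a CT26 library for either gene. On the log2(FPKM + 1) scale, used for every fold change here, Mt1 was lower in Hepa1-6 by a log2 fold change of -1.43 (SE 0.0815, limma adjusted p = 2.14e-08) and Mt2 by -2.40 (SE 0.083, adjusted p = 2.76e-10). All adjusted p-values come from limma, by the Benjamini-Hochberg method over all genes tested, and a gene was called under 0.05. Of 12822 genes tested between the lines with DMSO, 76.8% were called, so the 3 calls among the 5 genes lie near that background.

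**Figure D1:**
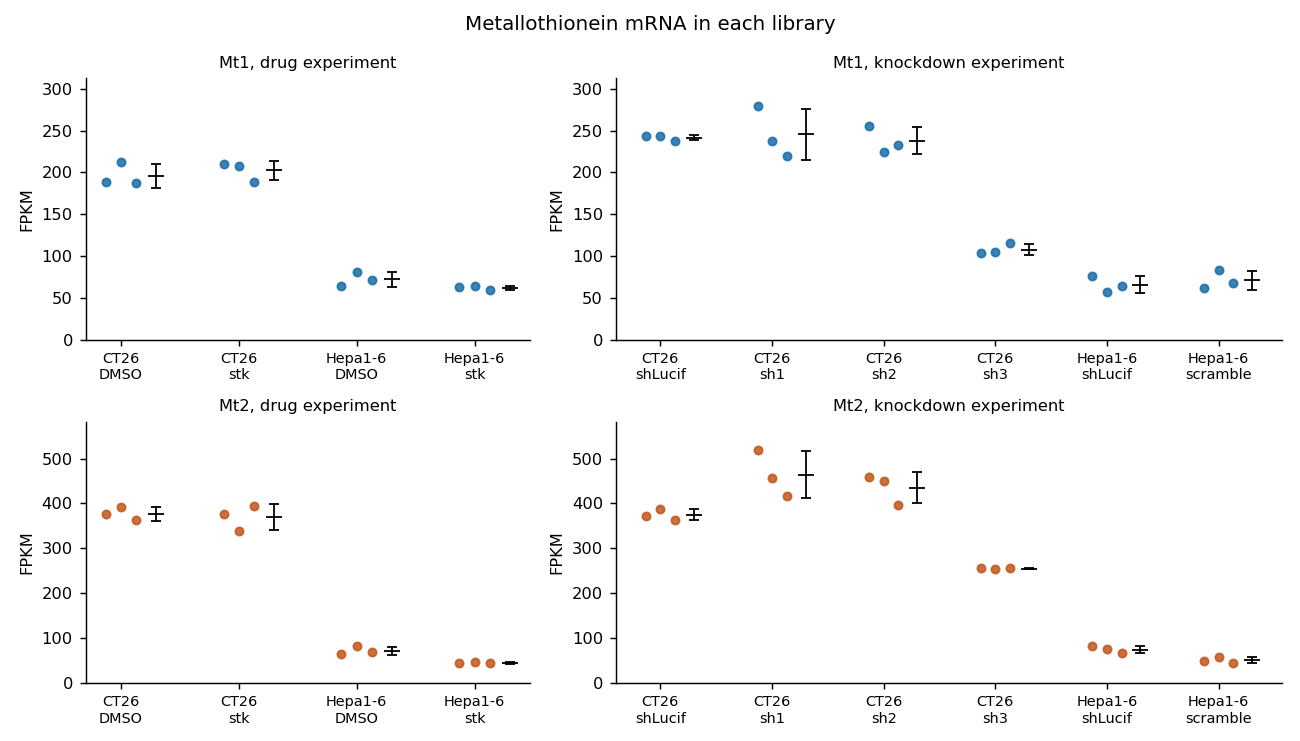
FPKM of Mt1 (top) and Mt2 (bottom) in each library of the drug experiment (left) and the knockdown experiment (right). Points are the 3 libraries of a group, with the mean and SD beside them. CT26 libraries of Mt2 sit between 253 and 520 FPKM and Hepa1-6 libraries between 43.2 and 81.3, and the 3 sh3 libraries are the lowest of the CT26 knockdown libraries for both genes.

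Slc39a10, the importer, had the opposite order. It was 3.08, 2.94 and 3.06 FPKM in CT26 with DMSO and 7.16, 6.39 and 6.37 in Hepa1-6, with no overlap (log2 fold change 0.92, SE 0.086, limma adjusted p = 1.68e-06). Mtf1 was 2.51, 2.18 and 2.73 FPKM in CT26 and 1.93, 2.71 and 2.28 in Hepa1-6. Slc30a1 was 3.43, 4.30 and 3.64 FPKM in CT26 and 3.62, 4.85 and 4.13 in Hepa1-6. The sensor and the exporter thus overlapped between the lines and neither was called (Mtf1 -0.08, SE 0.107, adjusted p = 0.531; Slc30a1 0.12, SE 0.0903, adjusted p = 0.262).

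The control hairpins gave the line comparison again in separate libraries. Mt1 was 243, 244 and 238 FPKM in CT26 shLucif, 76.2, 56.3 and 64.3 in Hepa1-6 shLucif and 61.1, 82.9 and 68.1 in Hepa1-6 scramble. Mt2 was 373, 388 and 364 FPKM in CT26 shLucif, 80.9, 74.7 and 65.5 in Hepa1-6 shLucif and 48.6, 57.4 and 44.3 in Hepa1-6 scramble. Both genes were far lower in either Hepa1-6 control, whose ranges overlapped for Mt1 and not for Mt2. Against CT26 shLucif, the log2 fold change of Mt1 was -1.88 (SE 0.116, limma adjusted p = 8.39e-10) with shLucif and -1.77 (SE 0.116, adjusted p = 8.81e-10) with scramble. That of Mt2 was -2.34 (SE 0.0969, adjusted p = 6.79e-12) and -2.89 (SE 0.0969, adjusted p = 1.87e-13). Slc39a10 was 1.36, 1.18 and 1.37 FPKM in CT26 shLucif and at least 5.51 FPKM in every Hepa1-6 library of this experiment, and it was called higher in both comparisons (1.5, SE 0.077, and 1.91, SE 0.077). Here Slc30a1 was called as well. It was 3.76, 4.43 and 4.25 FPKM in CT26 shLucif and between 2.17 and 3.38 FPKM in the 6 Hepa1-6 libraries (-0.34, adjusted p = 0.00566, with shLucif, and -0.44, adjusted p = 0.000738, with scramble, by limma). With DMSO the exporter had not been called between the lines. Mtf1 was called in neither comparison. Both comparisons share the CT26 shLucif libraries, and 72.4% and 79.9% of 13129 genes were called in them.

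**Figure D2:**
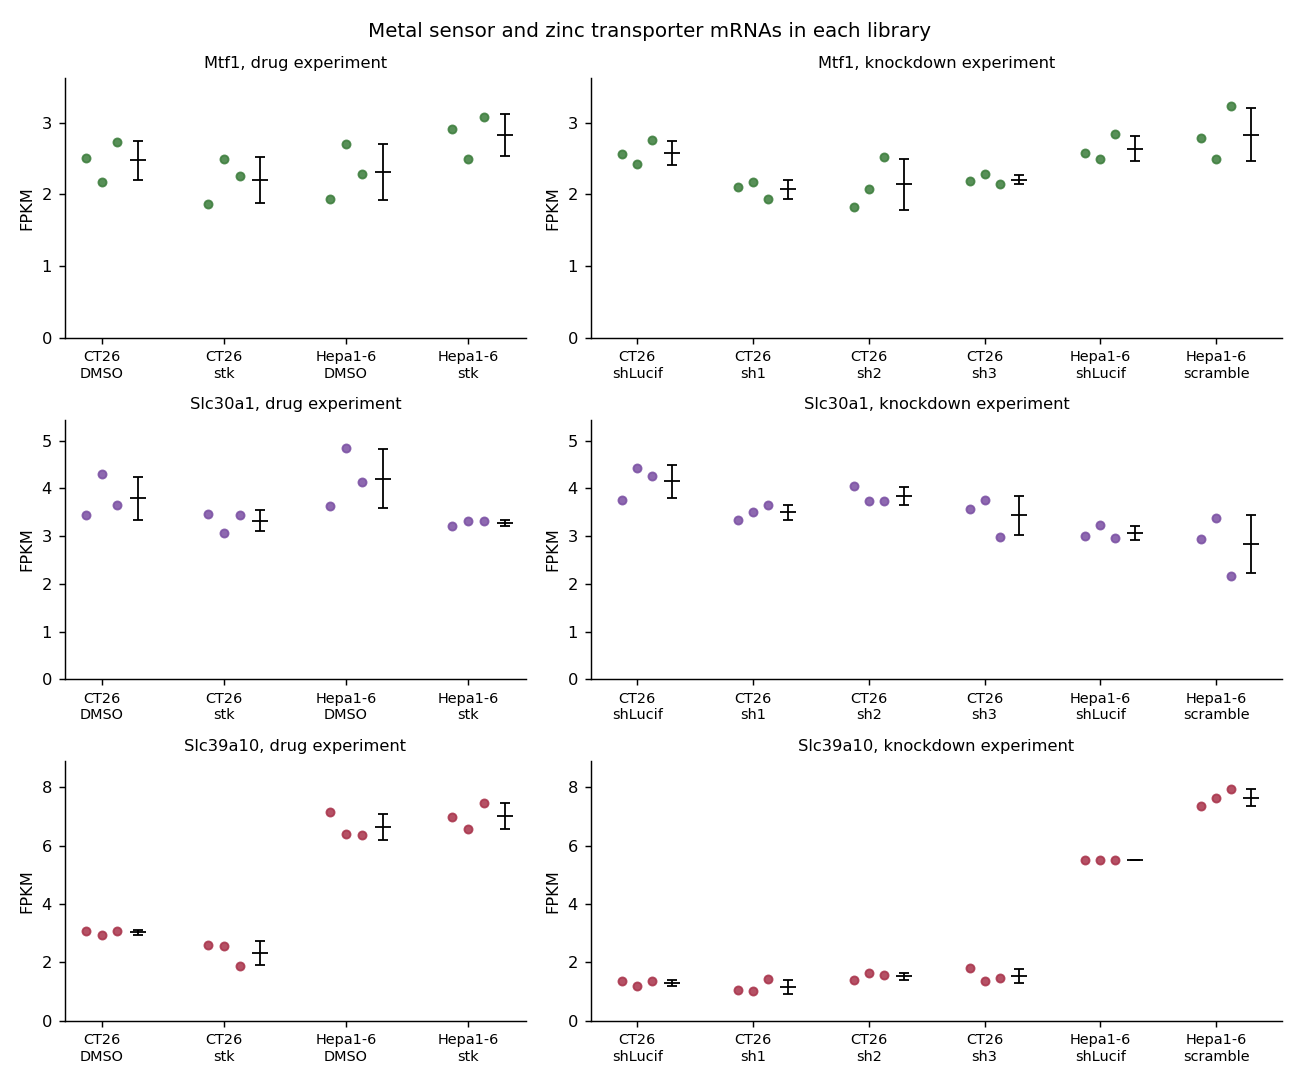
FPKM of Mtf1, Slc30a1 and Slc39a10 in each library, drawn as for the metallothioneins. Mtf1 stays between 1.82 and 3.23 FPKM in all 30 libraries, whereas Slc39a10 lies between 1.01 and 3.08 FPKM in CT26 and between 5.51 and 7.93 in Hepa1-6.

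The other zinc transporters were called between the lines about as often as all genes were: 11 of 15 tested with DMSO, where 76.8% of all genes were called. Of 13 further SLC39 importers, 10 were tested, of which 3 were higher and 4 lower in Hepa1-6. Slc39a4, an importer known from zinc uptake in the gut, was 43.4 FPKM in Hepa1-6 and 0.0867 in CT26 (log2 fold change 5.35, SE 0.0619, limma adjusted p = 2.55e-14). Slc39a8, which carries zinc and manganese, was 3.32 FPKM in Hepa1-6 and listed at 0 in CT26. Slc39a13 (7.98 against 19.4 FPKM) and Slc39a14 (4.17 against 10.1 FPKM) were lower in Hepa1-6, with log2 fold changes of -1.18 and -1.10. Of 9 further SLC30 exporters, 5 were tested, of which 2 were higher and 2 lower. Slc30a4 (28.4 against 49.1 FPKM) and Slc30a9 (2.8 against 6.94 FPKM) were the lower ones, at -0.77 and -1.06. Over the 15 tested transporters the median log2 fold change was 0.04, beside 0.007 over all genes tested. Mt3 and Mt4, the other metallothionein genes, did not pass the filter in any comparison.

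Of 8 genes linked to MTF1 or to the same stress responses, 1 was higher and 6 were lower in Hepa1-6, with a median log2 fold change of -0.38, beside 0.007 over all genes. These counts and those of the next lists are to be read against the 76.8% of all genes called in this comparison. The lower ones included Ndrg1, a stress-responsive gene (7.77 against 14.1 FPKM, -0.79), Selenow, a small selenoprotein gene (58.4 against 94.9 FPKM, -0.69), and Hmox1, which encodes heme oxygenase 1 (17.4 against 29.0 FPKM, -0.70). Csrp1 was the higher one (69.6 against 28.4 FPKM, 1.27). Of the copper handling genes, 7 of 9 tested were higher in Hepa1-6 and 2 lower. Slc31a1, the copper importer, was 23.5 against 12.2 FPKM (0.89), and the metalloreductase gene Steap2 was 0.324 against 8.64 FPKM (-2.86). Glucocorticoid response genes were called in both directions, 5 higher and 2 lower of 9 tested. Sgk1 was 46.1 against 7.40 FPKM (2.49) and Dusp1 18.6 against 2.99 FPKM (2.30), whereas Tsc22d3 was 1.65 against 4.70 FPKM (-1.10).

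In CT26 cells, stk left all 5 genes without a call. Mt1 was 210, 208 and 189 FPKM with stk, beside the 188, 212 and 187 with DMSO. Mt2 was 376, 339 and 395 FPKM with stk, beside 377, 393 and 362. For both metallothioneins the groups overlapped, and the log2 fold changes were 0.05 (SE 0.0624, limma adjusted p = 0.775) and -0.03 (SE 0.0608, adjusted p = 0.864). Mtf1 was 1.86, 2.50 and 2.25 FPKM with stk and Slc30a1 was 3.46, 3.07 and 3.44 FPKM, both overlapping their DMSO values. Slc39a10 was 2.59, 2.55 and 1.86 FPKM with stk, below all 3 DMSO libraries, and did not pass the test (-0.28, SE 0.0997, adjusted p = 0.28). By limma 0 of the 5 genes were called, against 0.748% of 11358 genes tested, and 1 of them (Slc39a10) had an unadjusted p under 0.05.

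In Hepa1-6 cells, Mt2 was lower with stk than with DMSO and the values of Mt1 overlapped. Mt2 was 43.4, 47.2 and 43.2 FPKM with stk, below the 64.6, 81.3 and 67.5 with DMSO. Mt1 was 62.4, 64.3 and 59.5 FPKM with stk, beside 63.7, 81.1 and 71.3. The mean of Mt2 with stk was thus 62.7% of the DMSO mean, with no overlap, and that of Mt1 was 86.2%, with overlap. The log2 fold changes were -0.66 (SE 0.0884) and -0.21 (SE 0.085). Slc30a1 was 3.21, 3.31 and 3.32 FPKM with stk, below all 3 DMSO libraries (-0.27, SE 0.092). Mtf1 was 2.91, 2.50 and 3.08 FPKM (0.22, SE 0.107) and Slc39a10 was 6.98, 6.57 and 7.47 FPKM (0.07, SE 0.0677), both overlapping their DMSO values. Over all genes, 1.53% of 11426 were called in this comparison. For the 5 genes no call is given and nothing is read from that share. The share of all genes whose groups did not overlap was not counted, here or in the other comparisons.

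Genes as short as Mt2 had medians below 0 with stk. In GENCODE the union of annotated exons is 588 bases for Mt2 and 1246 for Mt1. For Mt1 this union equals the whole span of the gene, so it may exceed the length of the Mt1 mRNA. Both coding sequences have 186 bases. The 330 tested genes within 20% of the exon length of Mt2 had a median log2 fold change of -0.128 in Hepa1-6 with stk beside a median of 0.003 over all genes. Their 5th percentile was -0.43, and the value of Mt2 was -0.66. In CT26 with stk the 319 genes of that length had a median of -0.079, and the value of Mt2 was -0.03. The part of length in the lower Mt2 with stk was not tested, nor was whether the response of Mt2 to stk differs between the lines.

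The wider lists held no call with stk. By limma, 0 of 13 tested SLC30 and SLC39 transporters in CT26 and 0 of 15 in Hepa1-6 were called, where 3 and 4 had an unadjusted p under 0.05. None of the 8 MTF1-linked genes was called in either line (2 and 1 under 0.05, unadjusted). The same held for the 8 tested copper handling genes (2 and 2) and the 9 glucocorticoid response genes (1 and 1).

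Both metallothioneins were lower with hairpin sh3 in CT26, whereas with sh1 and sh2 Mt1 was not called and Mt2 was higher. Mt1 was 103, 105 and 115 FPKM with sh3, against 243, 244 and 238 with shLucif. Mt2 was 255, 253 and 256 FPKM with sh3, against 373, 388 and 364. Neither gene overlapped its control, and the sh3 means were 44.5% and 67.9% of it. The log2 fold change was -1.16 for Mt1 (SE 0.0802, limma adjusted p = 8.09e-07) and -0.56 for Mt2 (SE 0.0752, adjusted p = 9.78e-05). With sh3 21.6% of 11832 genes were called lower and 52.5% in any direction, and 3 of the 5 genes were called lower.

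Mt1 was 279, 238 and 220 FPKM with sh1 and 256, 225 and 233 FPKM with sh2, ranges that span the shLucif values (log2 fold changes 0.01, SE 0.0802, limma adjusted p = 0.909, and -0.03, SE 0.0802, adjusted p = 0.826). Mt2 was 520, 457 and 416 FPKM with sh1 and 459, 450 and 396 FPKM with sh2, all above the highest shLucif library. It rose by 0.30 with sh1 (SE 0.0752, adjusted p = 0.00858) and by 0.21 with sh2 (SE 0.0752, adjusted p = 0.0446). The rise with sh2 lay near the threshold: leaving out any 1 of the 3 shLucif libraries, or sh2 library 1 or 2, ended the call, with adjusted p from 0.0594 to 0.142. It was also lost with no filter on low values (0.12), when 1 model held all knockdown libraries (0.103) and without the mean-variance trend (0.0575), and held in 7 of 15 alternatives. Of all genes tested, 37.8% were called with sh1 (19.1% higher) and 38.9% with sh2 (18.9% higher). The 3 hairpins share the shLucif libraries, so their fold changes are not independent.

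The difference between the hairpins was tested directly. Against the mean of sh1 and sh2, a contrast that does not use shLucif, Mt1 was lower with sh3 by a log2 fold change of -1.16 (SE 0.0695, limma adjusted p = 1.47e-07) and Mt2 by -0.81 (SE 0.0651, adjusted p = 1.22e-06). All 3 sh3 libraries lay below all 6 libraries of the other hairpins for both genes. Mtf1, Slc30a1 and Slc39a10 were not called there, but Slc30a1 was called lower under quantile normalization (-0.18, adjusted p = 0.0315) and with the length trend removed (-0.17, adjusted p = 0.0395). In this contrast 60.2% of genes were called, 24.7% lower, and the 5th percentile of all log2 fold changes was -0.639. The values of both metallothioneins lay below it. Soat1 itself was 2.52, 2.54 and 2.71 FPKM with sh3, lower than the 3.23 to 3.55 FPKM of the other hairpins.

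Averaged over the 3 hairpins, Mt1 was lower than with shLucif (log2 fold change -0.39, SE 0.0655, limma adjusted p = 0.000644) and Mt2 was not called (-0.01, SE 0.0614, adjusted p = 0.878). In this average 43.1% of genes were called, 19.8% lower. For Mt1 the mean covers 6 libraries near the control and 3 below it. For Mt2 it covers 6 above the control and 3 below it.

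For the sensor and the transporters the log2 fold changes with single hairpins lay between -0.22 and 0.14. Mtf1 was 2.56, 2.42 and 2.76 FPKM with shLucif, 2.10, 2.18 and 1.93 with sh1, 1.82, 2.08 and 2.52 with sh2 and 2.19, 2.28 and 2.15 with sh3. It lay below every control library in 8 of the 9 hairpin libraries and was called lower with sh1 (-0.22, SE 0.0797, limma adjusted p = 0.0485), where 18.7% of all genes were called lower. Without any 1 of the 6 libraries of that comparison the call was lost, with adjusted p from 0.0559 to 0.151, and it held in 4 of 13 alternatives. Other settings gave a call with the other hairpins: with sh3 under quantile normalization (-0.26, adjusted p = 0.0162) or with the length trend removed (-0.22, adjusted p = 0.0288), and with sh2 without sh2 library 3 (-0.28, adjusted p = 0.0125). Slc30a1 was 3.76, 4.43 and 4.25 FPKM with shLucif and 3.56, 3.75 and 2.98 with sh3, and it was called lower there (-0.22, SE 0.0749, adjusted p = 0.0295). This call was lost without shLucif library 2 (adjusted p = 0.105), without shLucif library 3 (0.0823) or without sh3 library 3 (0.112). It was also lost with no filter on low values (0.0645) and when 1 model held all knockdown libraries (0.0778), and held in 8 of 14 alternatives. Slc30a1 was 3.33, 3.51 and 3.64 FPKM with sh1 (-0.19, adjusted p = 0.0643) and 4.05, 3.74 and 3.73 with sh2 (-0.09, adjusted p = 0.387). With sh1 it was called lower under quantile normalization (-0.21, adjusted p = 0.045) and without shLucif library 1 (-0.25, adjusted p = 0.0367). Slc39a10 was low in every CT26 library of this experiment, from 1.01 to 1.81 FPKM, and was not called with any hairpin.

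In the mean of the 3 hairpins, Mtf1 (-0.19, SE 0.0651, limma adjusted p = 0.034) and Slc30a1 (-0.17, SE 0.0612, adjusted p = 0.0472) were called lower. Leaving out 1 library ended the call of Mtf1 in 6 of 12 cases (shLucif library 1 or 3, sh1 library 3, sh2 library 2, sh3 library 1 or 3), with adjusted p from 0.0513 to 0.148. It ended that of Slc30a1 in 7 of 12 (shLucif library 2 or 3, sh1 library 1 or 2, sh2 library 2 or 3, sh3 library 1), with adjusted p from 0.0529 to 0.199. Among all alternatives, the call of Mtf1 held in 11 of 19 and that of Slc30a1 in 9 of 19.

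**Figure D3:**
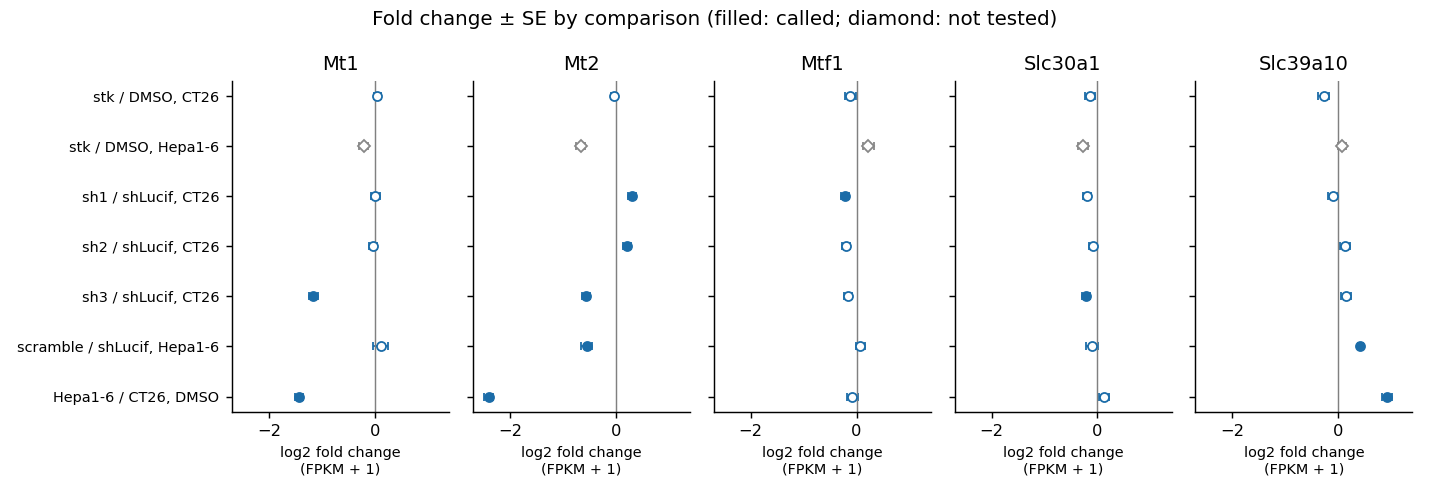
Log2 fold change of FPKM + 1 with its SE for each of the 5 genes (panels) in 7 comparisons (rows). Filled circles passed an adjusted p of 0.05, open circles did not, and grey diamonds mark Hepa1-6 with stk, which was not tested. Mt1 is displaced with sh3 (-1.16) and between the lines (-1.43), and Mt2 is above 0 with sh1 (0.30) and sh2 (0.21) and below it with sh3 (-0.56).

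The ratio of Mt2 to Mt1 within a library separated several groups. It depends on the gene lengths used to make FPKM, so only its differences between groups are read. In CT26 it was 1.53, 1.59 and 1.53 with shLucif, 1.86, 1.92 and 1.90 with sh1, 1.79, 2.0 and 1.70 with sh2 and 2.48, 2.40 and 2.23 with sh3. Every hairpin library lay above all 3 controls, and the sh3 libraries lay above those of the other hairpins. How many other gene pairs separate these groups in the same way was not counted. The ratio in CT26 was 1.93 ± 0.0702 with DMSO and 1.84 ± 0.234 with stk (SD, n = 3), with overlapping ranges. The CT26 DMSO libraries, at 1.86 to 2.0 in the other experiment, lay above shLucif and within the range of sh1 and sh2. In Hepa1-6 it was 0.986 ± 0.0339 with DMSO and 0.718 ± 0.0208 with stk, and 1.14 ± 0.169 with shLucif and 0.713 ± 0.0747 with scramble, neither of which had the drug. Scramble thus lay as low as stk. The smallest two-sided p that an exact permutation test can reach with 3 libraries against 3 is 0.1, and none was run on the ratio.

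**Figure D4:**
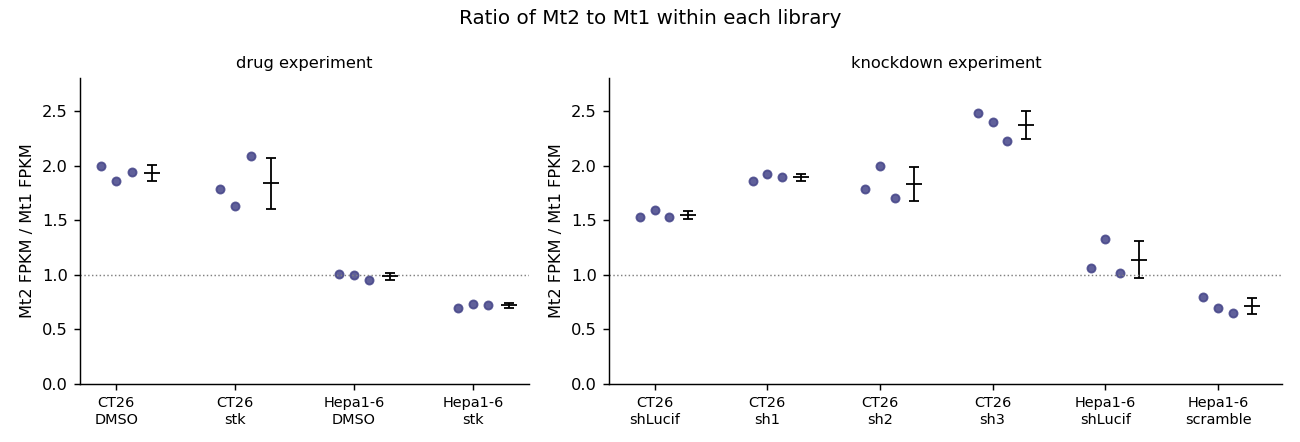
Mt2 FPKM divided by Mt1 FPKM in each library of both experiments, with the mean and SD of each group of 3. A dotted line marks equal FPKM. All CT26 libraries lie above it, from 1.53 to 2.48, and the Hepa1-6 libraries lie between 0.651 and 1.33.

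Among the other zinc transporters in CT26, Slc39a13, an importer of the secretory pathway, was higher with each hairpin. It was 8.78 FPKM with shLucif, 11.7 with sh1 (log2 fold change 0.38, limma adjusted p = 0.000899), 11.2 with sh2 (0.31, adjusted p = 0.0027) and 17.6 with sh3 (0.93, adjusted p = 8.09e-07). With sh3, Slc39a1, a plasma membrane importer, rose from 40.1 to 59.1 FPKM (0.55), and Slc39a7, which releases zinc from the endoplasmic reticulum, rose from 24.3 to 32.9 FPKM (0.43). Slc39a11 fell from 10.4 to 8.09 FPKM (-0.32). Slc30a6 and Slc30a5, which load zinc into the secretory pathway, rose by 0.37 and 0.19. Of 13 tested transporters, 5 were higher and 1 lower with sh3, 3 higher and 1 lower with sh1, and 3 higher and 2 lower with sh2. These shares are near those over all genes (52.5%, 37.8% and 38.9% called). Their median log2 fold changes were 0.08, 0.10 and 0.09, beside 0.04, -0.005 and -0.011 over all genes.

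**Figure D5:**
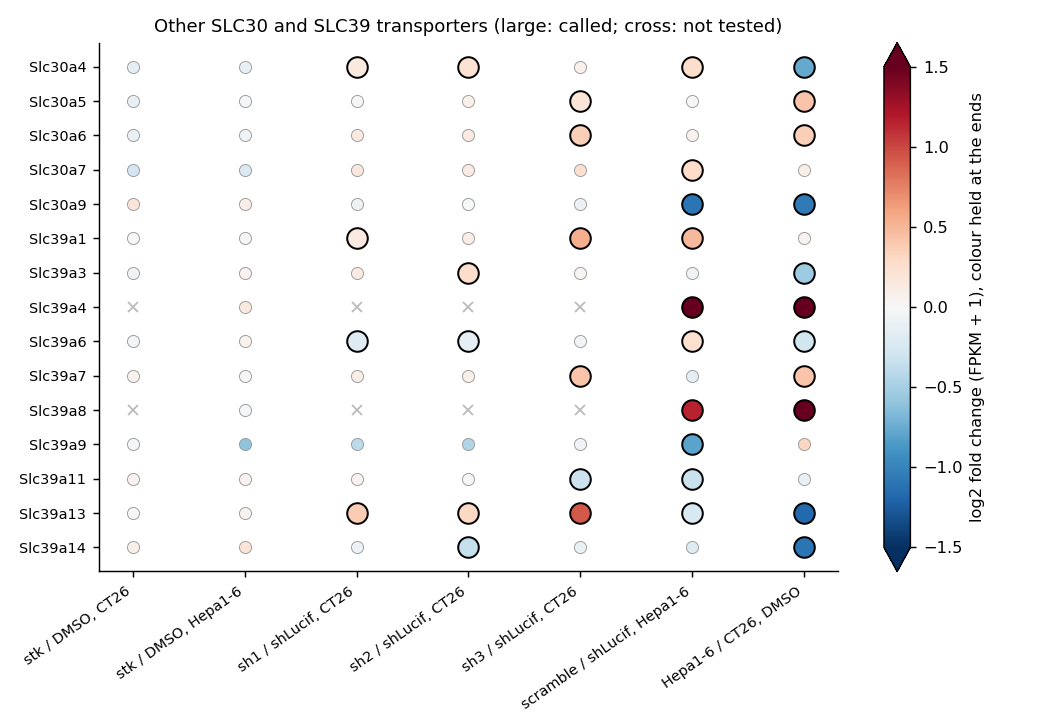
Log2 fold change of FPKM + 1 (colour) of the 15 other SLC30 and SLC39 transporters that passed the filter in at least 1 of 7 comparisons. Large outlined circles were called, small ones were not, and crosses were not tested. With stk in either line 0 were called, whereas Slc39a13 is higher with all 3 hairpins and lower in Hepa1-6 than in CT26.

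Of the 8 genes linked to MTF1 or to the same stress responses, 5 were higher and 0 lower by limma with sh1 and with sh2 (5 with an unadjusted p under 0.05 in each), and 3 were not called. Over all genes, 37.8% were called with sh1 and 38.9% with sh2, 19.1% and 18.9% higher. Hmox1 was 40.2 FPKM with shLucif, 56.9 with sh1 (0.49, SE 0.0437) and 59.0 with sh2 (0.54, SE 0.0437). Txnrd1, the thioredoxin reductase gene, was 35.3, 44.8 (0.33) and 43.6 FPKM (0.29), and Gclc, the catalytic subunit of glutathione synthesis, was 17.7, 20.9 (0.23) and 21.8 FPKM (0.29). Ndrg1 was 88.2 FPKM with shLucif, 124 with sh1 (0.48, SE 0.0685), 115 with sh2 (0.37, SE 0.0685) and 36.6 with sh3. Ndrg1 was the only gene of this list called lower with sh3 (-1.25, SE 0.0685, limma adjusted p = 1.71e-07). With sh3, 2 of these 8 genes were higher and 1 lower, below the 52.5% called over all genes. The higher ones were Gclc (0.22) and Hmox1 (0.14, limma adjusted p = 0.0194), and the call of Hmox1 held in 11 of 15 alternatives.

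Slc31a1, the copper importer, fell with every hairpin, from 15.4 FPKM with shLucif to 10.8 with sh1 (-0.47), to 11.7 with sh2 (-0.36), and by a log2 fold change of -0.57 with sh3. Of 8 copper handling genes tested, 1 was higher and 1 lower with sh1 and with sh2, and 1 was higher and 2 lower with sh3. Commd1 was the other lower gene with sh3 (7.38 to 5.19 FPKM, -0.44). Among 9 glucocorticoid response genes, 2 were higher and 0 lower with sh1 and with sh2 by limma (3 and 4 with an unadjusted p under 0.05), and 5 were higher and 2 lower with sh3. Over all genes 37.8%, 38.9% and 52.5% were called with sh1, sh2 and sh3, so the copper counts and the glucocorticoid counts with sh1 and sh2 are below the background. Dusp1, a phosphatase gene, rose from 8.58 to 16.6 FPKM with sh3 (0.88), Tsc22d3 from 6.79 to 12.7 FPKM (0.83) and Sgk1 from 11.8 to 19.6 FPKM (0.68). Zfp36 was among the lower ones with sh3 (-0.28, limma adjusted p = 0.00783). The part of glucocorticoid signalling in the metallothionein result was not tested.

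Some markers of other cell types differed with sh3 too, while others of the same lists did not. The summed fibroblast markers were 169 to 177 FPKM with sh3, 118 to 120 with shLucif, and 102 to 113 with sh1 and sh2. Col1a1 (18.6 FPKM with shLucif, 56 with sh3) and Col1a2 (90.8 and 108) carried that sum, whereas Pdgfrb (7.76 and 7.33) and Dcn (0.75 and 0.0932) were not higher. The summed intestinal markers were 42.8 to 47.3 FPKM with sh3, 22.5 to 22.6 with shLucif and 24.1 to 35.5 with sh1 and sh2, and Krt20 (21.1 FPKM with shLucif, 41.9 with sh3) made up most of them. In unmodified CT26 with DMSO, in the other experiment, Col1a1 was 54.7 FPKM, near its value with sh3. Col1a2 (84.5 FPKM) and Krt20 (26.5 FPKM) were nearer to shLucif there. The summed fibroblast markers with DMSO were 144 to 158 FPKM and the summed intestinal markers 26.3 to 30.2. The summed leukocyte markers were 5.72 to 6.08 FPKM with sh3 and 6.9 to 7.37 with shLucif. The 6 endothelial markers reached 1 FPKM in no group. The part of these shifts in the metallothionein result was not tested.

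In Hepa1-6 the 2 control hairpins differed from each other in Mt2 and Slc39a10. Mt2 was lower with scramble (48.6, 57.4 and 44.3 FPKM) than with shLucif (80.9, 74.7 and 65.5), with no overlap (log2 fold change -0.55, SE 0.11, limma adjusted p = 0.00374). Slc39a10 was higher with scramble (7.37, 7.63 and 7.93 FPKM) than with shLucif (5.52, 5.51 and 5.51), also with no overlap (0.41, SE 0.0476, adjusted p = 0.000261). Mt1 was not called (0.11, SE 0.14, adjusted p = 0.526), nor were Mtf1 and Slc30a1. Between these controls 68.2% of 12055 genes were called, so 2 of 5 is below the background. With DMSO, in the other experiment, Mt2 in Hepa1-6 was 64.6 to 81.3 FPKM, a range that overlapped shLucif and lay above scramble. Slc39a10 was 6.37 to 7.16 FPKM there, between the 2 control hairpins. The Hepa1-6 shLucif libraries are the ones that lie between the lines in their marker genes. For Slc39a10 and Mt2 they lay on the CT26 side of scramble, and for Mt1 their range overlapped that of scramble. The part of that shift in these differences was not tested.

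The genes whose levels ran most like the metallothioneins within a line and experiment were found by Pearson correlation of log2(FPKM + 1), after the mean of each line in each experiment was subtracted. They are given as a description, over genes with at least 1 FPKM in every library used. Across the 12 CT26 knockdown libraries, Mapkapk2, Cnbp, Calm3, Lrrc59 and Stom were nearest to Mt1 (r 0.984 to 0.988), and Psmg3, Camk1, Dnm2, Cnpy2 and Ppp1r8 were nearest to Mt2 (r 0.974 to 0.979). Mt2 ranked 294 among 10292 genes in likeness to Mt1 (r = 0.935). Across all 30 libraries, centred in this way so that the difference between the lines is removed, Tsn, Isoc1, Mfn1, Mrps10 and Stom were nearest to Mt1 (r 0.926 to 0.932), and Gm10275, Naca, Tomm20, Rps24 and Mrpl57 were nearest to Mt2 (r 0.865 to 0.902). There Mt2 ranked 363 among 9013 genes in likeness to Mt1 (r = 0.721). Libraries of a group and line share their cells and handling, so these values carry differences between groups.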

How the data were processed

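The authors deposited FPKM in 2 tables, 1 per experiment. Per the labels, total RNA was extracted with TRIzol, a SMARTer kit was used for certain samples, reads were paired-end and trimming used Skewer. The submitters' processing notes list GRCm38, HISAT2, STAR, DESeq2 and edgeR, and which made the FPKM is not given in the sources used here. Tables were assigned by column names. Of 45 labelled samples 30 had a matching column, and 21 further columns were not used. The Hepa1-6 Soat1 hairpins were not analysed here. Per line, 3 of 6 labelled stk samples had a column. Libraries of sh1 carry no replicate number and are numbered in column order as names only. The labels give 1 batch date per experiment, and levels were tested only within a table.

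Differences were tested two-sided with limma 3.58.1 (R 4.3.3, mean-variance trend) on log2(FPKM + 1), which understates changes of low genes. A gene was tested where 3 or more libraries of the model held 1 FPKM or more. Each line of an experiment had its own model, and comparisons between lines used 1 model of the table. The script was tested on simulated data. The 5 genes and all lists were chosen with earlier results of these data known. Named list genes were called ones, at most the 4 with the largest absolute change per list and comparison. GENCODE and RefSeq gave coordinates and sequences. Pseudocount, filter, scaling, length trend, model, replicate block and left-out libraries were varied.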

Additional observations from a re-analysis of the deposited data

How the results depend on the processing

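The falls of Mt1 and Mt2 with sh3, against shLucif and against the mean of sh1 and sh2, were called in every alternative run, as were Mt2 with sh1, Mt1 in the mean of 3 hairpins, Mt2 and Slc39a10 between the Hepa1-6 controls, and Mt1, Mt2 and Slc39a10 between the lines. Of 163 calls of named list genes and Soat1, all kept their direction and 140 their call in every alternative in which the gene was tested. A gene that failed the filter in an alternative was left out there and not counted as a loss. Replicate numbers did not pair the libraries: correlations of same-numbered deviations were between -0.05 and 0.105. With the replicate block, Slc30a1 with sh3 had an adjusted p of 0.06, and stk gave 4 calls in each line, against 85 in CT26 and 175 in Hepa1-6 without it. Other settings moved the stk counts too. In CT26 they were 14 with no filter on low values, 133 at 5 FPKM or more, 204 with all libraries in 1 model, 44 without the mean-variance trend and 2 to 92 with 1 library left out. In Hepa1-6 they were 4, 473, 928, 17 and 8 to 59, and 92 with the length trend removed. The share of higher calls in CT26 with stk was 17.6%, and 30.2% with quantile normalization and 43.8% with the length trend removed. In Hepa1-6 it rose from 44.6% to 62.4% with libraries scaled to a common sum, and with sh3 it fell from 58.8% to 48.1% with the length trend removed (from 59% to 48.5% against sh1 and sh2).

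Mt2 with stk in Hepa1-6, given without a test, was -0.52 with the length trend removed. Reversals touched only small changes that were not called. Mt2 with stk in CT26 was 0.03 with quantile normalization, 0.08 with the length trend removed and 0.03 without stk library 2. Mt1 with sh1 was -0.01 with quantile normalization and -0.08 to 0.09 with 1 library left out (below 0 without sh1 library 1), and with sh2 it was -0.08 to 0.01 (above 0 without sh2 library 2). Mt2 in the mean of hairpins was 0.00 with libraries scaled to a common sum, 0.03 with quantile normalization, and -0.04 to 0.01 with 1 library left out (above 0 without shLucif library 2, sh1 library 3 or sh2 library 3). Mtf1 with sh3 against the other hairpins was -0.05 with quantile normalization and -0.02 with the length trend removed. Between the Hepa1-6 controls, leaving out 1 library gave -0.01 to 0.22 for Mt1 (below 0 without scramble library 2), 0.00 to 0.14 for Mtf1 and -0.20 to 0.03 for Slc30a1 (both turned without scramble library 3). Mtf1 between the lines with DMSO was -0.16 to 0.01 (above 0 without Hepa1-6 library 1). With shLucif it was -0.06 with quantile normalization, -0.05 with the length trend removed, -0.01 without CT26 library 2 and -0.02 without Hepa1-6 library 3. The cause of these moves was not tested. FPKM carry no read totals, so counting error is unknown, and it bears most on Mtf1, Slc30a1 and Slc39a10, which lie under 8 FPKM.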
